A study of Mus musculus with 17 samples.

Results

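The TNF and NF-kappaB feedback genes are a set of 10 genes. It holds Tnf, its receptors Tnfrsf1a and Tnfrsf1b, and the NF-kappaB subunit genes Nfkb1, Nfkb2, Rela and Relb. It also holds the feedback inhibitors Nfkbia and Tnfaip3, and Birc3. The genes were taken by name from the 21931 genes of the deposited table. All 10 were among the 13005 genes with enough reads to be tested. RNA was sequenced from the distant tumor, the one that was not frozen, of mice that carried a tumor on both sides. MC38, a mouse colon cancer line, had been implanted under the skin of wild-type C57BL/6J mice of 6 to 8 weeks. Mice of the cryoablation group had 1 of their tumors frozen on the 7th day, in 2 cycles of 20 s by the sample labels (the methods of the study give longer cycles), and gave the other tumor 5 days later. The control group was collected at the same labelled time without this treatment, and the labels do not say whether a probe was inserted. There were 9 control and 8 cryoablation tumors, which are grafts of 1 cell line under the skin and not tumors of the colon. The labels do not tie each tumor to its own mouse, so a p value here measures the spread between these tumors.

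TNF is a cytokine made mainly by activated leukocytes. It binds the receptors TNFR1 and TNFR2, which pass the signal through adaptor proteins to the IKK kinases. These mark the inhibitor IkappaB alpha for degradation, and dimers of Rel proteins then enter the nucleus and switch on target genes. The inhibitor genes Nfkbia and Tnfaip3 are themselves targets of NF-kappaB, which closes a negative feedback loop and keeps the response short. A second, non-canonical branch passes through Nfkb2 and Relb. In tumors this pathway is known for its part in inflammation and in the survival of tumor cells.

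Total counts ranged from 13524899 to 17898672 per tumor. Cryoablation replicates 2, 4 and 5 stood apart from the other tumors in how expression related to gene length. The slope of a tumor's deviation from the mean of all tumors on log2 gene length was -0.30, -0.27 and -0.39 per doubling of length in them, and lay between -0.17 and 0.23 in the other tumors, so short genes were relatively higher in these 3. The slopes of the groups differed by -0.10 (exact permutation test, two-sided, p = 0.288). Fold changes that moved by over 1.5 times without these 3 tumors are given with and without them. Of 7 markers of colon epithelium, Cdx2 was at 0 counts in every tumor and 4 passed the filter, with a summed level of 16.0 to 65.8 CPM in control and 10.0 to 123.0 CPM in cryoablation tumors. The 4 erythroid markers were all higher at an unadjusted p under 0.05 in edgeR's quasi-likelihood test, with a summed level of 6.16 to 74.1 CPM in control and 24.8 to 172.7 CPM in cryoablation tumors. Of the 6 neutrophil markers 3 were tested and 2 were higher, with a summed level of 6.35 to 57.9 CPM in control and 7.04 to 53.9 CPM in cryoablation tumors, and the defining marker Ly6g had at most 3 counts in every tumor. The 4 adipocyte markers were tested with all 4 above 0 and 2 higher at that p, with a summed level of 17.6 to 107.6 CPM (median 36.7) in control and 17.004 to 205.8 CPM (median 134.1) in cryoablation tumors. Of 4 epidermal markers 3 were tested, all above 0 and 1 higher, with a summed level of 182.0 to 443.5 CPM in control and 204.5 to 663.4 CPM in cryoablation tumors. The 4 endothelial markers were all below 0 (median log2 fold change -0.27), as were 5 of 6 fibroblast markers (median -0.07), with 0 called at that p in either list. The part of these cells in the values below was not tested.

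Across the genes of the pathway, the comparison asked whether cryoablation of 1 tumor was followed by a change of TNF and NF-kappaB transcripts in the other. By edgeR's quasi-likelihood test 0 of the 10 genes had an adjusted p under 0.05, as did 0 of all 13005 genes tested (0.0%), with a smallest adjusted p of 0.728. At an unadjusted p under 0.05, Nfkb2 was the 1 gene of the 10, against 639 of 13005 genes (4.91%). With an absolute log2 fold change over 1 added to that p, the count was 0 of 10, against 64 of 13005 genes (0.492%). DESeq2 and limma voom each gave 0 adjusted calls as well, and 2 of the 10 genes at an unadjusted p under 0.05. Of all 13005 genes, 881 had such a p in DESeq2 and 1312 in limma voom. The levels of each gene follow in CPM, its count scaled to the size of the library after TMM normalization.

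**Figure D1:**
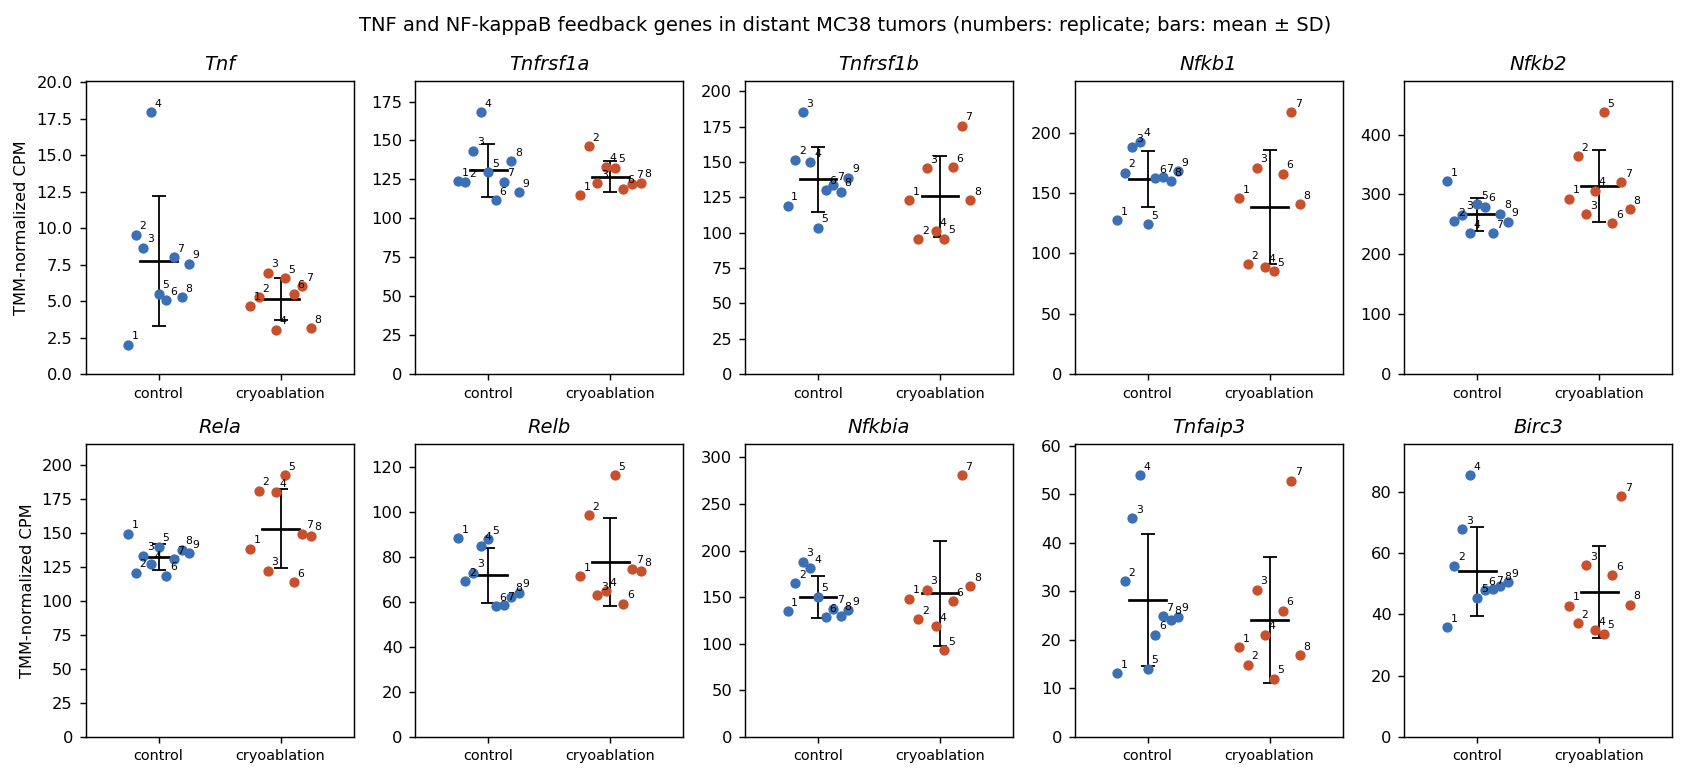
Level of each of the 10 genes (TMM-normalized CPM, vertical axis from 0) in 9 control (blue) and 8 cryoablation (red) tumors. Each point is a tumor with its replicate number, and black bars give the mean and SD. Control replicate 4 was highest for Tnf at 17.9 CPM and cryoablation replicate 7 for Nfkbia at 280.9 CPM, while Rela and Nfkb2 were highest in cryoablation replicate 5.

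The levels of the 10 genes, per kilobase of the gene length in the table, came in the following order. Nfkbia was highest, at 94.4 ± 25.1 CPM per kb (SD, n = 17 tumors), and exceeded Nfkb2 in 15 of 17 tumors. Nfkb2 followed at 63.1 ± 11.1 CPM per kb and exceeded Tnfrsf1a in 16 tumors. Tnfrsf1a, at 49.7 ± 5.35, and Rela, at 46.3 ± 7.44 CPM per kb, did not differ beyond their spread, with Tnfrsf1a higher in 10 of 17 tumors. Rela exceeded Tnfrsf1b in 14 tumors. Tnfrsf1b (34.6 ± 6.74), Relb (19.2 ± 4.12), Nfkb1 (12.5 ± 3.09) and Birc3 (10.2 ± 2.93 CPM per kb) came next, each above the one after it in 15 to 17 tumors. Tnf, at 3.98 ± 2.17, and Tnfaip3, at 3.63 ± 1.81 CPM per kb, were lowest and did not differ beyond their spread, with Tnf higher in 10 tumors. The transcript of the inhibitor was thus the most abundant of the 10 and that of the ligand among the least. Tnf also varied most between tumors, with a coefficient of variation of 54.5%, and Tnfrsf1a least, with 10.8%.

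Tnf encodes the ligand and is listed at chr17:35418357-35420983 on the minus strand. The table's positions are given as listed, in a build that could not be named, since they equal GENCODE M21 for 499 of 21827 shared genes although the submitters' processing notes name GRCm38. Tnf ranged from 2.02 through a median of 7.57 to 17.9 CPM in control tumors and from 3.05 through 5.38 to 6.93 CPM in cryoablation tumors. Each of the 8 cryoablation tumors was under the median of the control group, and each was inside the control range. The raw counts behind these values were low, 27 to 277 in control and 39 to 127 in cryoablation tumors. The log2 fold change of cryoablation over control was -0.59 (SE 0.31, 95% interval -1.23 to 0.06), with an unadjusted p of 0.0710 and an adjusted p of 0.728 by edgeR. The difference of the mean log2 CPM was -0.43 (exact permutation test, two-sided, p = 0.217, n = 9 and 8).

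The size of the Tnf difference depended on single tumors. Control replicate 4, at 17.9 CPM, was the highest and control replicate 1, at 2.02 CPM, the lowest of all 17 tumors. Without control replicate 4 the log2 fold change was -0.34 (unadjusted p = 0.210 by edgeR), and without control replicate 1 it was -0.71 (unadjusted p = 0.0134 by edgeR, and 0.0218 in the exact permutation test). With cryoablation replicates 2, 4 and 5 left out it was -0.56. With limma voom, over all tumors, the unadjusted p was 0.0317.

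Leukocytes are the main source of TNF, so Tnf was also set against the leukocyte markers of each tumor. The score, the mean log2 CPM of 10 leukocyte markers, was 5.55 ± 0.55 (SD, n = 9) in control and 5.36 ± 0.38 (n = 8) in cryoablation tumors (difference -0.19, exact permutation test p = 0.434). The summed level of these markers ranged from 1441 to 3695 CPM in control and from 921 to 4636 CPM in cryoablation tumors. All 10 were tested, with 8 below and 2 above 0 (median log2 fold change -0.30). At an unadjusted p under 0.05 by edgeR, 1 of them was lower and 0 were higher. Tnf relative to the score was -2.78 ± 0.48 in control and -3.01 ± 0.50 in cryoablation tumors, a difference of -0.24 on the log2 scale (exact permutation test, two-sided, p = 0.335, n = 9 and 8). Leaving out 1 tumor at a time gave -0.38 to -0.16, and without cryoablation replicates 2, 4 and 5 it was -0.073. In bulk tumors, fewer cells that express a gene and less RNA of it per cell cannot be told apart.

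Tnf followed the leukocyte score across the 17 tumors (Pearson r = 0.71, permutation p = 0.00256, adjusted 0.0162 over 19 relations; Spearman rho = 0.63, p = 0.00818, adjusted 0.0259). An absolute r as large was found in 4.58% of all tested genes. Without the 2 tumors farthest from the median score r was 0.68, and 0 of the 19 relations then passed adjustment. The relation was r = 0.83 within the control group and 0.27 within the cryoablation group, a difference that was not tested. Within the control group 6 of the 10 genes passed adjustment with the score, and 0 within the cryoablation group. Among the 6 were Birc3 (r = 0.90), Tnfaip3 (0.89), Nfkb1 (0.79) and Nfkb2 (-0.76), none of which passed over all tumors. The share of all genes within the groups was not computed. Control replicate 4 had the highest score, 6.70, together with the highest Tnf. Cryoablation replicate 7 had the lowest score, 4.62, and the highest Tnf relative to its score.

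**Figure D2:**
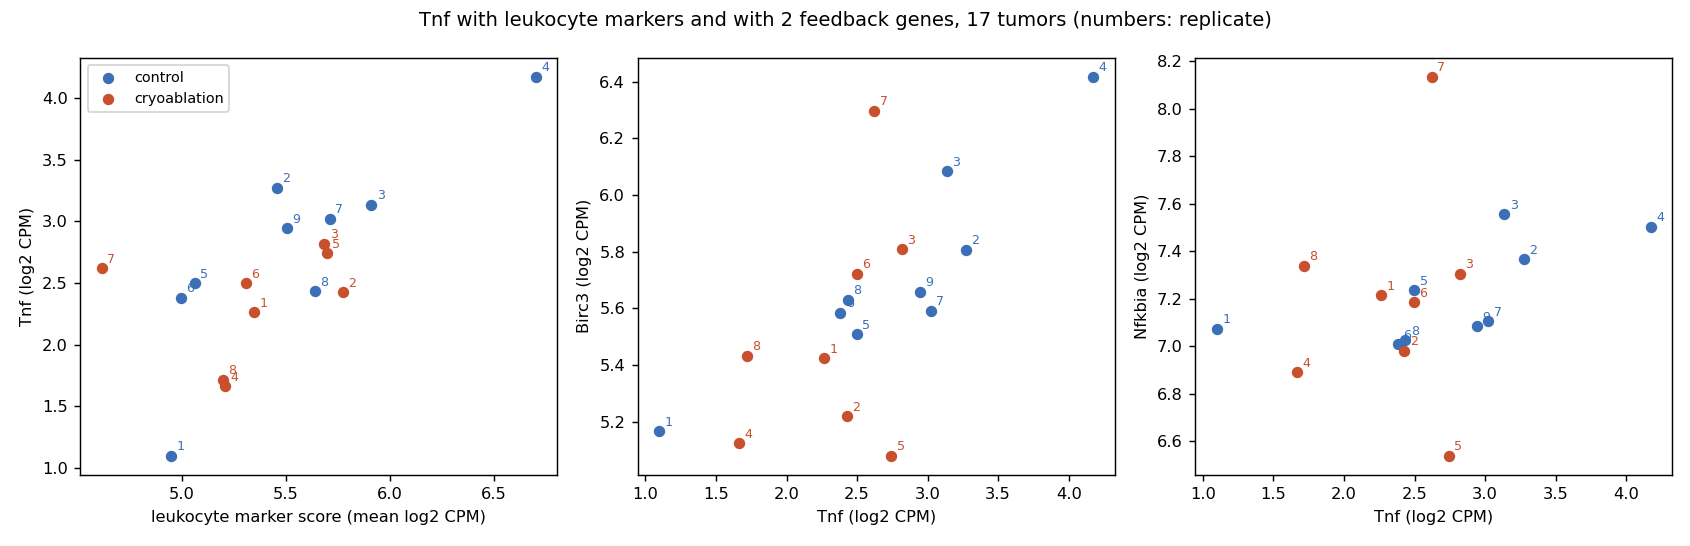
Tnf (log2 CPM) against the leukocyte marker score (mean log2 CPM, left panel), and Birc3 and Nfkbia (log2 CPM) against Tnf (middle and right panels) in 9 control (blue) and 8 cryoablation (red) tumors, each point a tumor with its replicate number. Tnf correlated with the score (r = 0.71) and with Birc3 (r = 0.71) more than with Nfkbia (r = 0.29), where cryoablation replicate 7 lay far above the others. The difference between these correlations was not tested.

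The intervals of both receptor genes included 0. Tnfrsf1a, which encodes TNFR1 (chr6:125326325-125339447, plus strand), ranged from 111.7 through a median of 123.7 to 168.0 CPM in control tumors and from 115.0 through 122.6 to 146.2 CPM in cryoablation tumors. Every cryoablation tumor lay inside the control range, with 3 above and 5 below the control median. Its log2 fold change was -0.05 (SE 0.08, 95% interval -0.22 to 0.13, edgeR adjusted p = 0.840; exact permutation p = 0.609, n = 9 and 8). This is the narrowest interval of the 10 genes, and the value was -0.13 without cryoablation replicates 2, 4 and 5. Tnfrsf1a followed the leukocyte score by Pearson's r (0.74, permutation p = 0.00134, adjusted 0.0127) but not after adjustment by Spearman's rho (0.57, p = 0.0202, adjusted 0.0548). Without the 2 farthest tumors r was 0.55, and it was 0.84 within the control and 0.45 within the cryoablation group.

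Tnfrsf1b, which encodes TNFR2, a receptor found mainly on immune and endothelial cells (chr4:144940033-144973440, minus strand), ranged from 103.6 through 133.6 to 185.0 CPM in control tumors and from 95.5 through 123.1 to 175.6 CPM in cryoablation tumors. Cryoablation replicates 2, 4 and 5, at 95.5, 101.1 and 95.7 CPM, were the 3 tumors below the control range. Over all tumors the log2 fold change was -0.13 (SE 0.13, 95% interval -0.41 to 0.15, edgeR adjusted p = 0.768; exact permutation p = 0.290, n = 9 and 8). With those 3 tumors left out it was 0.042.

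The 4 subunit genes encode the DNA-binding Rel proteins, and they did not share a direction. Nfkb2 encodes p100, the precursor of p52 in the non-canonical branch (chr19:46292759-46300824, plus strand), and the table has it overlapping Psd on the other strand. Whether the counting used strand is not given in the sources used here, so reads from Psd cannot be told apart there. Nfkb2 ranged from 235.0 through a median of 266.1 to 322.0 CPM in control tumors and from 252.4 through 299.4 to 436.9 CPM in cryoablation tumors. Of the 8 cryoablation tumors 7 lay above the control median and 2 above the control range, replicate 2 at 363.7 and replicate 5 at 436.9 CPM. This gave a log2 fold change of 0.24 (SE 0.11, 95% interval 0.02 to 0.46, edgeR unadjusted p = 0.0375, adjusted 0.728; exact permutation p = 0.0347, n = 9 and 8). It was 0.072 without cryoablation replicates 2, 4 and 5 (edgeR unadjusted p = 0.408; exact permutation p = 0.316). With offsets for the length trend of each tumor, all 17 kept, it was 0.29 (edgeR unadjusted p = 0.0263, of the model over all genes and not an exact test). Leaving out 1 tumor at a time gave 0.16 to 0.28, the lowest without cryoablation replicate 5.

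Rela encodes p65, the main activating subunit of the canonical branch (chr19:5687511-5698158, plus strand). It ranged from 118.7 through 133.4 to 149.4 CPM in control tumors and from 113.8 through 148.8 to 192.7 CPM in cryoablation tumors. Replicates 2, 4 and 5 of the cryoablation group were highest, at 181.3, 179.9 and 192.7 CPM, and replicate 7, at 149.6 CPM, was also above the control range. This gave a log2 fold change of 0.21 (SE 0.10, 95% interval -0.01 to 0.42, edgeR unadjusted p = 0.0560, adjusted 0.728; exact permutation p = 0.0764, n = 9 and 8). It was 0.013 without the 3 tumors (edgeR unadjusted p = 0.877; exact permutation p = 0.836). With length offsets it was 0.18 (edgeR unadjusted p = 0.0412, of the model over all genes and not an exact test).

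Relb, the partner of p52 (chr7:19340142-19363363, minus strand), ranged from 58.0 through 69.1 to 88.2 CPM in control tumors and from 59.2 through 72.5 to 116.4 CPM in cryoablation tumors. Replicates 2 and 5, at 98.7 and 116.4 CPM, were above the control range and the other 6 inside it. Its log2 fold change was 0.12 (SE 0.14, 95% interval -0.18 to 0.41, edgeR adjusted p = 0.789; exact permutation p = 0.499, n = 9 and 8), and -0.076 without the 3 tumors.

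Nfkb1 encodes p105, the precursor of p50 (chr3:135290416-135397308, minus strand). It ranged from 124.2 through 163.1 to 192.5 CPM in control tumors and from 85.2 through 143.1 to 216.8 CPM in cryoablation tumors. Replicates 2, 4 and 5 were lowest, at 90.9, 88.7 and 85.2 CPM, and replicate 7 was the highest of all tumors. Nfkb1 had a log2 fold change of -0.22 (SE 0.17, 95% interval -0.59 to 0.14, edgeR adjusted p = 0.737; exact permutation p = 0.144, n = 9 and 8). It was 0.051 without the 3 tumors, and -0.35 without cryoablation replicate 7 (edgeR unadjusted p = 0.0425; exact permutation p = 0.0414). The same 3 tumors were thus at the low end for Nfkb1 and Tnfrsf1b and at the high end for Rela.

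**Figure D3:**
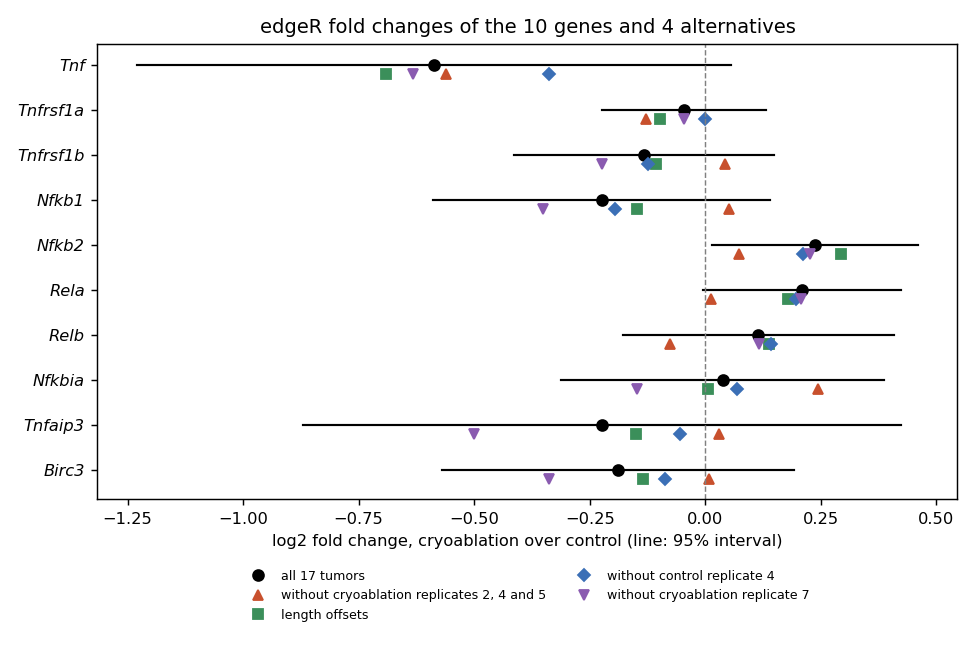
Log2 fold change of cryoablation over control for each of the 10 genes from edgeR. Black points with lines give the estimate over all 17 tumors and its 95% interval, and colored symbols give 4 alternatives. Without cryoablation replicates 2, 4 and 5 (triangles) Nfkb2 moved from 0.24 to 0.072 and Rela from 0.21 to 0.013, and without control replicate 4 (diamonds) Tnf moved from -0.59 to -0.34.

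Of the 2 feedback inhibitors, Nfkbia encodes IkappaB alpha, which holds Rel dimers in the cytoplasm (chr12:55536195-55539432, minus strand). It ranged from 128.6 through a median of 137.4 to 187.9 CPM in control tumors and from 92.8 through 146.8 to 280.9 CPM in cryoablation tumors. Cryoablation replicate 7, at 280.9 CPM, was far above the next tumor of its group, at 161.8 CPM, and replicates 2, 4 and 5 were below the control range. The log2 fold change was 0.04 (SE 0.17, 95% interval -0.31 to 0.39, edgeR adjusted p = 0.934; exact permutation p = 0.917, n = 9 and 8). Its sign depended on 1 tumor, being -0.15 without cryoablation replicate 7 and 0.24 without replicates 2, 4 and 5, and the difference of the mean log2 CPM was -0.019.

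Tnfaip3 encodes A20, an enzyme that edits ubiquitin chains and switches signaling off (chr10:18876658-18891405, minus strand). It ranged from 13.1 through 24.7 to 54.0 CPM in control tumors and from 12.0 through 19.8 to 52.8 CPM in cryoablation tumors. The highest tumor of each group, control replicate 4 and cryoablation replicate 7, were at almost the same level. Tnfaip3 had a log2 fold change of -0.22 (SE 0.31, 95% interval -0.87 to 0.42, edgeR adjusted p = 0.806; exact permutation p = 0.487, n = 9 and 8). It was -0.056 without control replicate 4, -0.50 without cryoablation replicate 7 and 0.030 without cryoablation replicates 2, 4 and 5.

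Birc3 encodes cIAP2, a ubiquitin ligase at the TNF receptor (chr9:7848700-7873187, minus strand). It ranged from 35.8 through 49.4 to 85.4 CPM in control tumors and from 33.7 through 42.9 to 78.5 CPM in cryoablation tumors. Cryoablation replicates 4 and 5, at 34.8 and 33.7 CPM, were just below the control range. Birc3 had a log2 fold change of -0.19 (SE 0.18, 95% interval -0.57 to 0.19, edgeR adjusted p = 0.763; exact permutation p = 0.293, n = 9 and 8). It was -0.087 without control replicate 4, -0.34 without cryoablation replicate 7 and 0.0082 without cryoablation replicates 2, 4 and 5.

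NF-kappaB binds the kappaB site, and the promoters of the feedback genes are textbook places of it. The window from 250 bases before to 50 bases after each RefSeq transcription start (GRCm38.p6) was searched on both strands for the 10-base kappaB consensus, the 1 motif that was searched. Windows were held for 8 of the 10 genes, not for Nfkb1 and Relb. A match was in 5 of their 11 windows, belonging to Nfkb2, Nfkbia and Tnfaip3, and in 2779 of 32851 windows of all genes (8.46%). Nfkb2 alone held 3 of these windows, starts of 1 gene that partly overlap, so windows are not independent. Counted by gene, 3 of 8 had a match, and the share by gene over all genes was not computed. The stretches shown are those with a match that hold no exon of the gene itself. Capitals mark the match, and each is written along the strand of the gene.
Nfkbia, chr12:55492648-55492696, minus strand: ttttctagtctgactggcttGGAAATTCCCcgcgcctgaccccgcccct
Tnfaip3, chr10:19015411-19015442, minus strand: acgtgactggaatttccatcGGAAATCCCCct
Nfkb2, chr19:46305445-46305488, plus strand: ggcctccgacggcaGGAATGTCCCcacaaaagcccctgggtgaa
The match began 29 bases before the start in Nfkbia, where GENCODE M21 has no transcript. In Tnfaip3 it began 12 bases before the start, within an intron of another Tnfaip3 transcript. In Nfkb2 it began 236 bases before a downstream start, in an Nfkb2 intron and in an exon of AC114539.1 on the other strand. These letters do not show that a protein was bound. They stood both in genes that were low in cryoablation replicates 2, 4 and 5 (Nfkbia) and in a gene that was high in replicates 2 and 5 (Nfkb2).

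Tnf was next compared with each of the other 9 genes across the 17 tumors, and 2 passed adjustment by Pearson's r, a strength that 4.63% of all tested genes reached. It correlated with Tnfaip3 (r = 0.66, permutation p = 0.00341, adjusted 0.0162; rho = 0.69, p = 0.00261, adjusted 0.0170) and with Birc3 (r = 0.71, permutation p = 0.00120, adjusted 0.0127; rho = 0.73, p = 0.00128, adjusted 0.0170). Without the 2 tumors with the most extreme Tnf, r was 0.45 with Tnfaip3 and 0.52 with Birc3 and neither passed adjustment, so both relations rest in part on those tumors. Within the control group r was 0.87 with Tnfaip3 and 0.91 with Birc3, and within the cryoablation group 0.25 and 0.41. The values were 0.77 and 0.79 without cryoablation replicates 2, 4 and 5. The feedback gene Nfkbia was not among these, with r = 0.29 (permutation p = 0.242, adjusted 0.384). By Spearman's rho, Tnf also correlated with Tnfrsf1b (0.68), Nfkb1 (0.67) and, negatively, Nfkb2 (-0.64), each with an adjusted p of 0.0170 to 0.0236, while Pearson's r did not pass adjustment for these 3. With the leukocyte score, Tnfaip3 and Birc3 had r = 0.89 and 0.90 within the control group (adjusted permutation p = 0.00641 each). Within the cryoablation group these were -0.71 and -0.64 (adjusted permutation p = 0.394 each), and over all tumors 0.31 and 0.30. The part of leukocytes in the relations of Tnf with these genes was not tested. The difference of the relations between the groups was not tested.

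The genes fell into sets that moved together from tumor to tumor, seen after the values were known and given as a description. Of the 36 pairs of the 9 genes other than Tnf, 21 had an adjusted permutation p under 0.05, 13 of them positive and 8 negative. The weakest of these had an absolute r of 0.55, which 36.5% of all pairs of tested genes also reached. Tnfrsf1b, Nfkb1, Nfkbia, Tnfaip3 and Birc3 were positively correlated in all 10 of their pairs, with r from 0.76 to 0.94, and from 0.66 to 0.96 without cryoablation replicates 2, 4 and 5. The closest of these pairs was Tnfaip3 with Birc3 (r = 0.94, rho = 0.92). Nfkb2, Rela and Relb were positively correlated in all 3 of their pairs, with r from 0.68 to 0.84, but from 0.42 to 0.62 without the 3 tumors, when 0 pairs passed adjustment. Between the sets r ranged from -0.81 (Nfkb1 with Rela) to -0.19, and from -0.33 to 0.35 without the 3 tumors, when 0 of 15 pairs passed. Within the control group they ranged from -0.75 (Nfkb1 with Nfkb2) to 0.46, where 3 pairs, all negative, had an unadjusted permutation p under 0.05 and 0 passed adjustment. The positive pairs of the first set passed without the 3 tumors.

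The length slope of the tumors moved with the same sets. Across 17 tumors it correlated with 8 of the 10 genes at an adjusted permutation p under 0.05. Among all 13005 genes tested 54.5% had an absolute r at least as large as the weakest of these 8 (0.65), and nothing particular to the 10 is read from the count. The 5 positive relations were those of Nfkb1 (r = 0.93), Tnfrsf1b (0.89), Birc3 (0.73), Tnfaip3 (0.71) and Nfkbia (0.65), and the 3 negative ones those of Rela (-0.86), Relb (-0.73) and Nfkb2 (-0.70). Spearman's rho had the same sign and passed adjustment for the same 8. Leaving out cryoablation replicates 2, 4 and 5, 4 of the relations passed (Nfkb1, Tnfrsf1b, Tnfaip3 and Relb), and without the 2 tumors of the most extreme slope 5. Within the cryoablation group 9 passed and within the control group 0. The share of all genes was not computed for these subsets, and the difference between the groups was not tested. Over all tumors Tnf (0.33) and Tnfrsf1a (-0.33) did not pass adjustment, while Tnfrsf1a was at -0.76 within the cryoablation group (adjusted permutation p = 0.0305, n = 8). The genes range in length from 1610 bases (Nfkbia) to 12061 bases (Nfkb1). What sets the slope was not tested.

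**Figure D4:**
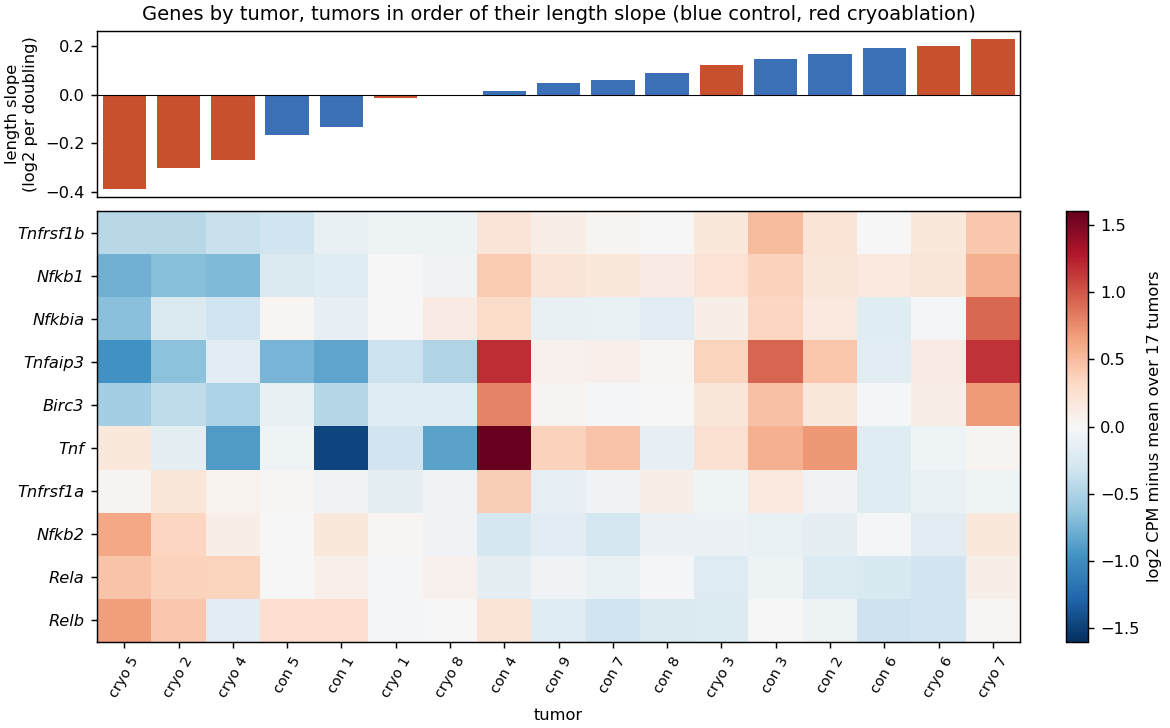
Log2 CPM of the 10 genes minus their mean over 17 tumors (color, red above and blue below the mean), with the tumors in order of their length slope (bars above, log2 per doubling of gene length; blue control, red cryoablation). Cryoablation replicates 5, 2 and 4 at the left end had slopes of -0.39, -0.30 and -0.27 and were low for Nfkb1 and Tnfrsf1b and high for Rela, and cryoablation replicate 7 at the right end, with a slope of 0.23, was high for Nfkbia and Tnfaip3.

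The genes whose pattern over the 17 tumors was most like that of Tnf were Acod1 (r = 0.94), which encodes the enzyme that makes itaconate in activated macrophages, Il18r1 (0.91), a receptor of interleukin 18, Clec4e (0.90), a lectin receptor of myeloid cells, Mfsd7a (0.89) and Dnajc3 (0.88), a co-chaperone of the endoplasmic reticulum. These correlations were 0.90 to 0.98 without cryoablation replicates 2, 4 and 5. Their own log2 fold changes were -0.83 (SE 0.39) for Acod1, -0.59 (0.32) for Il18r1, -0.45 (0.29) for Clec4e, -0.61 (0.48) for Mfsd7a and -0.15 (0.09) for Dnajc3, with adjusted p values of at least 0.728 by edgeR. Among the genes most like Nfkbia were Lif (0.89), a cytokine of the interleukin 6 family, Fgf7 (0.86), a growth factor for epithelium, Ackr3 (0.85), a scavenging chemokine receptor, and Dusp1 (0.84), a phosphatase of MAP kinases. None of the 10 genes of the pathway was among the 5 genes closest to Tnf or to Nfkbia. Birc3 came closest, at rank 13 for Nfkbia. These are correlations over tumors that share a table and a normalization.

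The rest of the pathway was described by 83 genes sorted by role, of which 78 were tested. Of these, 0 had an adjusted p under 0.05, and at an unadjusted p under 0.05 edgeR counted 3 higher and 1 lower in cryoablation tumors, against 3.74% and 1.17% of all genes tested. Their median log2 fold change was -0.03, with 36 above and 42 below 0, beside a median of -0.0088 over all genes, and it was 0.0055 without cryoablation replicates 2, 4 and 5. Cd40lg, Sele, Ccl20, Csf2 and Bcl2a1b were too low to be tested.

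Of 9 ligand genes besides Tnf, 8 were tested, with 3 above and 5 below 0 and a median of -0.14, which was 0.15 without control replicate 4 and -0.34 without cryoablation replicates 2, 4 and 5. Tnfsf10, which encodes the death ligand TRAIL, ranged from 2.32 through 7.72 to 19.1 CPM in control tumors and from 2.09 through 4.08 to 10.8 CPM in cryoablation tumors (log2 fold change -0.79, SE 0.38, unadjusted p = 0.0506 by edgeR). Tnfsf11, which encodes RANKL, had a value of -0.65 (SE 0.46), and its highest tumor was control replicate 4 at 6.99 CPM. Its value was -0.23 without that tumor and -0.44 without cryoablation replicates 2, 4 and 5. Control replicate 4 was also the highest tumor for Tnf.

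Receptor and adaptor genes had 11 of 18 above 0 and a median of 0.12, which became -0.022 without cryoablation replicates 2, 4 and 5. Traf2, an adaptor that binds TNFR2 and TRADD, ranged from 50.5 through 53.7 to 75.9 CPM in control and from 51.4 through 64.0 to 95.1 CPM in cryoablation tumors (log2 fold change 0.27, SE 0.14, edgeR unadjusted p = 0.0581). The 3 highest cryoablation tumors were replicates 2, 4 and 5, at 94.2, 75.3 and 95.1 CPM, and without them the value was 0.0055. Ripk1, the kinase that docks at TNFR1, had -0.22 (SE 0.13, unadjusted p = 0.102), and -0.056 without those 3 tumors. Of 11 genes of kinases and their partner proteins (Tab1, Tab2, Tab3 and Ikbkg), 3 were above and 8 below 0. Their median was -0.14, which was 0.0057 without the 3 tumors. Ikbkb, the catalytic IKK subunit of the canonical branch, had -0.22 (SE 0.16) and Tbk1, an IKK-related kinase, -0.17 (SE 0.12), and without the 3 tumors they had 0.0057 and -0.037. Rel, the remaining subunit gene, had -0.15 (SE 0.23), and 0.13 without them.

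Among 16 inhibitor genes 8 were above and 8 below 0, with a median of -0.01. Tnip2, a partner of A20, ranged from 27.5 through 33.9 to 35.9 CPM in control and from 14.9 through 30.2 to 32.8 CPM in cryoablation tumors. The control median was thus above each of the 8 cryoablation tumors. Its log2 fold change was -0.20 (SE 0.13, edgeR adjusted p = 0.728; exact permutation p = 0.0470, n = 9 and 8, not adjusted). The lowest tumor was cryoablation replicate 4, without which the value was -0.10, and without cryoablation replicates 2, 4 and 5 it was -0.066. Tax1bp1, another partner of A20, had -0.17 (SE 0.09, exact permutation p = 0.0514, n = 9 and 8), and -0.029 without those 3 tumors.

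The 28 target genes, of which 24 were tested, held all 4 unadjusted calls of the lists. Their median was -0.05, with 11 above and 13 below 0, and it was 0.065 without the 3 tumors. Cxcl1, a chemokine that draws neutrophils, ranged from 4.03 through 7.05 to 13.6 CPM in control tumors and from 4.73 through 6.99 to 358.5 CPM in cryoablation tumors. The highest value was that of cryoablation replicate 7 alone, and the next tumor of its group was at 8.00 CPM. Its log2 fold change of 2.76 (SE 0.89, edgeR unadjusted p = 0.00592; exact permutation p = 0.649, n = 9 and 8) became -0.22 without that tumor. Il6, an inflammatory cytokine, ranged from 0.36 to 1.47 CPM in control tumors and was at 30.6 CPM in cryoablation replicate 7, with the next tumor at 1.48 CPM, so its log2 fold change of 2.30 (SE 0.87) became -0.27. Cxcl2 and Plau, named after their values were seen, were the other 2 calls. Cxcl2, a chemokine close to Cxcl1, had 76.4 CPM in the same tumor, with the next at 3.80 CPM, and 1.74 (SE 0.80) became -0.47. In this 1 tumor, Cxcl1, Il6 and Cxcl2 were high together with Nfkbia and Tnfaip3, while its Tnf, at 6.03 CPM, was inside the range of both groups. Plau, the urokinase gene, ranged from 25.4 through 43.2 to 98.9 CPM in control and from 15.8 through 33.1 to 47.5 CPM in cryoablation tumors (log2 fold change -0.58, SE 0.23, edgeR unadjusted p = 0.0231). In 7 of 8 cryoablation tumors Plau was below the control median, and without control replicate 4 the value was -0.39.

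**Figure D5:**
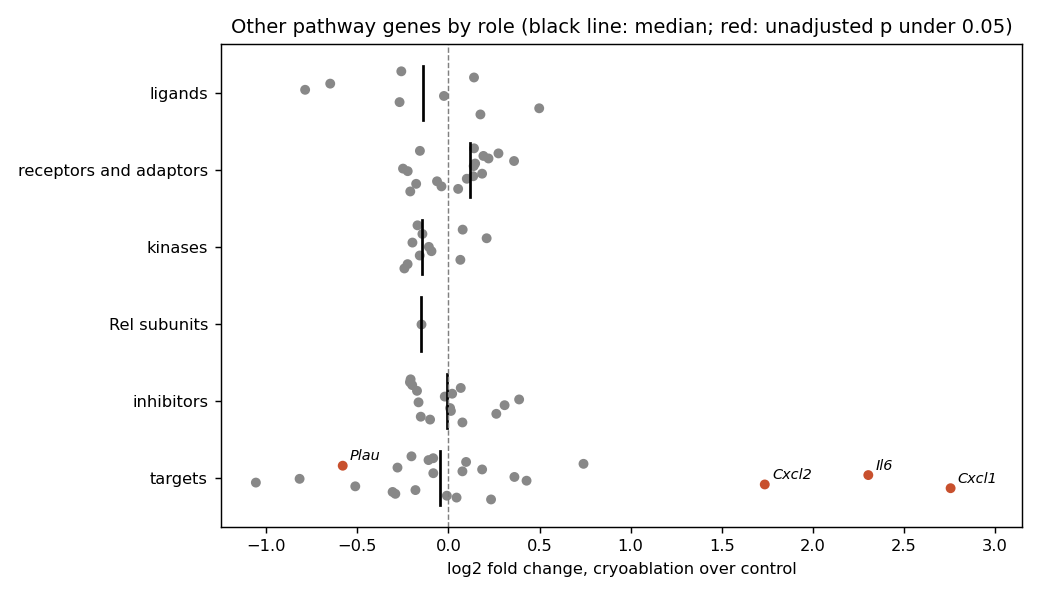
Log2 fold change of cryoablation over control for the 78 tested genes of the pathway lists, by role. Each point is a gene, black lines give the median of a list, and red points had an unadjusted p under 0.05 by edgeR. List medians lie between -0.15 and 0.12, and Cxcl1, Il6 and Cxcl2 at the right rest on cryoablation replicate 7.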

How the data were processed

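RNA sequencing of 9 control and 8 cryoablation distant tumors was analysed. Groups were taken from the sample labels, whereas the text of the study gives the group sizes the other way round. The authors deposited raw read counts per gene and FPKM values in 1 table, with mRNA captured on magnetic beads and sequenced on a NovaSeq platform. The FPKM that the authors deposited equalled count over length and total in 100% of values (relative tolerance 1e-06) and were not used further. The aligner, the counter and the strandedness are not given in the sources used here. The members, gene lists and tests were chosen with earlier results of these data known.

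Counts were fitted with edgeR 4.0.16 in R 4.3.3 (TMM, filterByExpr, quasi-likelihood F test, group as the only term) and p values adjusted by Benjamini-Hochberg over 13005 genes. Standard errors were taken as the absolute log2 fold change over the root of F. Single values were compared on log2 CPM (prior count 2) by a two-sided exact permutation test of all regroupings into 9 and 8, whose smallest p is 4.11e-05. Correlations used 100000 permutations and were adjusted within 19 planned relations, 10 with the length slope and 36 pairs, both of the latter, and the shares of all genes set beside the correlations, added after seeing the data. Genes named were the 10 members, the 2 of smallest p in each role list and the 5 most like Tnf and Nfkbia, of which 1 is not reported here. Alternatives were DESeq2 1.42.0, limma 3.58.1 voom with quality weights, upper-quartile factors, other filters, length offsets (natural splines, 4 degrees of freedom), a replicate block and leaving out tumors. The scripts were tested on simulated counts. Counts measure reads, not molecules. Promoter sequences are RefSeq's.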

Additional observations from a re-analysis of the deposited data

Results flagged for a closer look

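The 9 values below lay far from the rest of their group, the gap to the nearest tumor being above Dixon's 95% critical value for the range of the group. In all 46 groups of values (a gene in the control or the cryoablation tumors) were examined. The critical value is set to flag about 1 in 20 groups of independent, normally distributed values. That rate does not apply here. Some genes were named for a small p that an outlying tumor can give, and all genes share the same tumors. In control replicate 4, Tnf was at 17.9 CPM (next highest 9.54), Tnfsf11 at 6.99 CPM (next 3.34) and Plau at 98.9 CPM (next 55.3). In cryoablation replicate 7, Nfkbia was at 280.9 CPM (next 161.8), Tnfaip3 at 52.8 CPM (next 30.4), Cxcl1 at 358.5 CPM (next 8.00), Il6 at 30.6 CPM (next 1.48) and Cxcl2 at 76.4 CPM (next 3.80). In cryoablation replicate 4, Tnip2 was lowest at 14.9 CPM (next lowest 26.4). Of the 9 values, 8 belonged to these first 2 tumors.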

How the results depend on the processing

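In none of the 26 alternatives did a member reach an adjusted p under 0.05 or pass the fold threshold. Of 260 fold changes of members 251 kept their direction and 9 did not. Without cryoablation replicates 2, 4 and 5 these were Tnfrsf1b 0.042, Nfkb1 0.051, Relb -0.076, Tnfaip3 0.030 and Birc3 0.0082 (differences of mean log2 CPM 0.054, 0.055, -0.056, 0.056 and 0.020). The others were Tnfrsf1a without control replicate 4 (-0.081 to 0.00019 with 1 tumor left out, mean difference -0.070 to 0.0067) and Nfkbia in the replicate block (-0.044), the block with length offsets (-0.19) and without cryoablation replicate 7 (-0.15). The mean difference of Nfkbia, -0.019 over all tumors, was 0.22 without the 3 tumors, and ran from -0.15 without cryoablation replicate 7 to 0.075 without replicate 5, being positive also without control replicate 3 (0.023) or 4 (0.017) or cryoablation replicate 2 (0.012) or 4 (0.025). Without the 3 tumors Ikbkb was 0.0057 and Rel 0.13. Cxcl1 was -0.19 in DESeq2, Il6 -0.23 and Cxcl2 -0.43, and in limma voom Il6 was -0.50 and Cxcl2 -0.098. With 1 tumor left out, Cxcl1 ran from -0.22 to 2.93, Il6 from -0.27 to 2.49 and Cxcl2 from -0.47 to 1.96, each lowest without cryoablation replicate 7.

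Members with an unadjusted p under 0.05 numbered 1, with 2 in DESeq2, limma voom and with length offsets, 0 in the replicate block and without the 3 tumors, and 0 to 3 with 1 tumor left out. All genes with such a p numbered 639, with 881 in DESeq2, 1312 in limma voom, 707 with length offsets and 439 in the replicate block. They numbered 992 without a filter, 325 without the 3 tumors and 252 (without cryoablation replicate 2) to 1388 (without replicate 3) with 1 tumor left out. Genes past the fold threshold numbered 64, with 432 without a filter, 33 in the block, 39 with length offsets, 28 with both, and 34 (without cryoablation replicate 5) to 165 (without replicate 3) with 1 tumor left out. The ligand median turned from -0.14 to 0.15 without control replicate 4. The median of kinases and their partner proteins turned from -0.14 to 0.0057 without the 3 tumors. The median of the receptor and adaptor list was 0.12, with -0.022 without the 3 tumors and 0.013 to 0.16 with 1 tumor left out. Relations passing adjustment numbered 4 of 19, with 0 without the 2 farthest tumors, 10 within control, 0 within cryoablation and 7 without the 3 tumors. Those with the length slope numbered 8, with 5, 0, 9 and 4 in the same order, and the pairs 21, with 12, 6, 12 and 10. Causes were not tested. Same-numbered tumors did not regularly deviate together (correlation -0.51 to 0.64 over 8 pairs, with 2 of 8 closest to their own number). Likeness of expression cannot show whether the numbers pair the tumors, and this was left undecided. Counts of Tnf were low, from 27, and what this adds to its standard error was not tested.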
